A study of Homarus americanus with 19 samples.

Results

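A gene annotated as a probable serine/threonine-protein kinase samkC, LOC121867949, and the Seq2Fun ortholog group of the same name, s2f_0112968001, were followed in whole larvae of the American lobster. They were chosen by name, as 1 of 25667 genes in the Kallisto count table, built on the reference transcripts, and 1 of 13933 ortholog groups in the Seq2Fun count table, because both had lower values after both exposures in these larvae. Levels of exposed larvae relative to control larvae are therefore given as a description, without a test. Each RNA-seq library came from 1 larva. The control larvae (n = 6) were kept in 0.22 µm filtered seawater, the methylnaphthalene larvae (n = 6) received 1-methylnaphthalene, the positive control of the study, at 0.3 mg/L by the labels (a supplementary note of the study gives a higher concentration), and the WAF larvae (n = 7) received seawater with 72% of a water accommodated fraction, which holds what dissolves or disperses from heavy crude oil, all for 24 h. The study describes the animals as stage I larvae and the sample labels give embryonic day 9, and the whole experiment was done once. No cells were sorted, so the values average over all tissues of a larva, and fewer cells that express the gene cannot be told apart from less RNA per cell.

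Protein kinases transfer phosphate from ATP to serine, threonine or tyrosine residues of other proteins and thereby switch their activity, location or stability. The name samkC comes from the slime mold Dictyostelium, in which it denotes a predicted kinase that carries a sterile alpha motif, a small domain for protein interactions. Names of this kind are passed on by sequence similarity. The protein sequence was not used here, so whether LOC121867949 holds a complete kinase domain was not checked, and the function of the gene in lobsters is not known from its name. LOC121867949 is annotated with 1 transcript over 2090 bases of the GMGI_Hamer_2.0 assembly, in a gene list that gives no chromosome or scaffold. No other gene or ortholog group had the same counts in all larvae.

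Total counts per larva ran from 14295653 to 44466373 in the Kallisto table and from 4580939 to 22681602 in the Seq2Fun table. Levels are given as CPM, the usual depth-scaled count, with library sizes adjusted by TMM (trimmed mean of M values). Without molecular identifiers, the intervals and limits below reflect the counting error alone.

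LOC121867949 was readily detected in control larvae, 8.10-fold lower on average in methylnaphthalene larvae and 69.3-fold lower in WAF larvae, where it was close to the detection limit. The methylnaphthalene value depended on replicate 2, without which the level was 14.5-fold lower, and the ratio of the medians was 12.3. In control replicates 1 to 6 it had 14.1, 11.6, 9.91, 21.3, 8.89 and 5.99 CPM, from between 122 and 541 counts per larva. In methylnaphthalene replicates 1 to 6 it had 0.373, 4.75, 0.354, 1.36, 1.65 and 0.388 CPM, from between 7 and 167 counts. In WAF replicates 1 to 7 it had 0.0878, 0.266, 0.0442, 0.0874, 0.187, 0.368 and 0.169 CPM, from between 1 and 19 counts. Every exposed larva lay below every control larva, and the methylnaphthalene and WAF larvae overlapped only at the edge, where WAF replicate 6 (0.368 CPM) exceeded methylnaphthalene replicate 3 (0.354 CPM). The lowest control larva was 1.26 times the highest methylnaphthalene larva and 16.3 times the highest WAF larva. Among all 18914 genes tested, 0.909% had every methylnaphthalene larva below every control larva, 0.365% had every WAF larva below, and 0.111% (21 genes) had both.

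**Figure D1:**
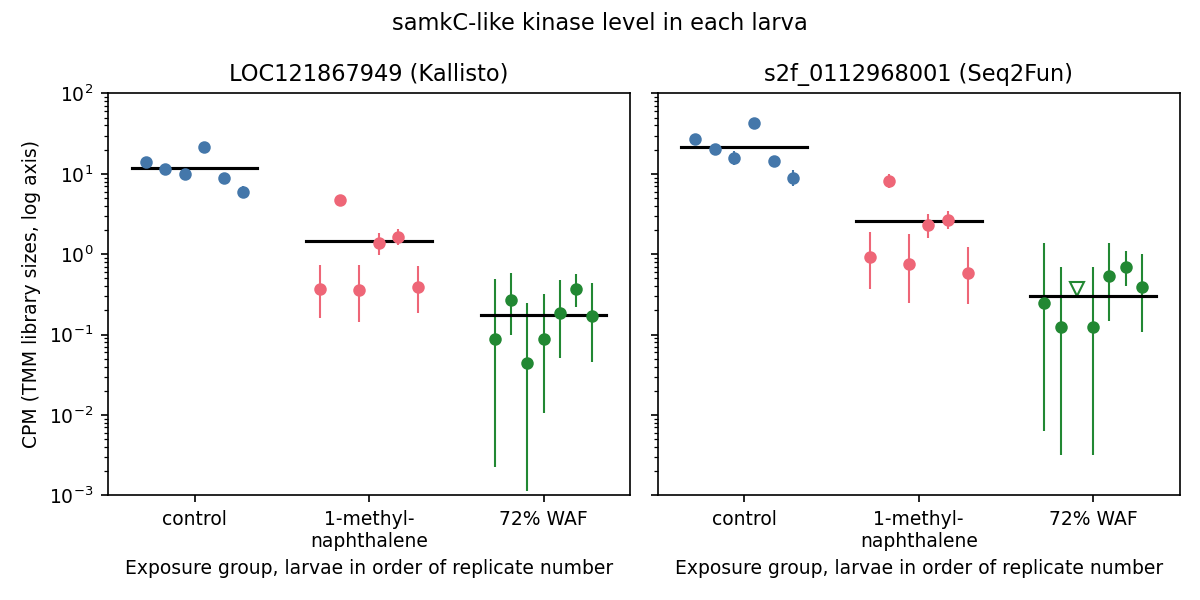
CPM of the samkC-like gene in the Kallisto table (left) and of its ortholog group in the Seq2Fun table (right) on a log axis, 1 point per larva in order of replicate number, with exact 95% Poisson intervals of the counts. Horizontal lines are group means, and the open triangle marks a larva with 0 counts at the level that 3 counts would give. In both tables all control larvae (Kallisto mean 11.98 CPM) lie above all exposed larvae, and WAF larvae (mean 0.173 CPM) lie mostly below methylnaphthalene larvae (mean 1.48 CPM).

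LOC121867949 averaged 11.98 ± 5.33 CPM (SD, n = 6) without exposure, 1.48 ± 1.70 CPM (SD, n = 6) after methylnaphthalene and 0.173 ± 0.114 CPM (SD, n = 7) after WAF. The order of the group means was thus control, methylnaphthalene, WAF. In the edgeR fit of all genes the log2 fold change relative to control larvae was -2.98 (standard error 0.559) with methylnaphthalene and -5.94 (standard error 0.641) with WAF. By fitted log2 fold change LOC121867949 ranked 20 from the bottom of 18914 genes with methylnaphthalene and 3 from the bottom with WAF. A gene was called where the adjusted p was under 0.05 and the log2 fold change beyond 1.5 in either direction, and 0.169% of genes were called lower with methylnaphthalene, 0.106% with WAF and 0.037% with both. Since the gene was chosen for this pattern, these ranks add no evidence for it. In WAF larvae the estimate rests on 37 counts in all, against 1981 in control and 322 in methylnaphthalene larvae, and 3 WAF larvae had 3 counts or fewer. For WAF replicate 3, with 1 count, the exact 95% Poisson interval was 0.00112 to 0.246 CPM.

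The ortholog group s2f_0112968001 gave the same order of the groups from the same libraries. It had 26.9, 20.4, 15.8, 42.8, 14.6 and 8.85 CPM in control replicates 1 to 6. It had 0.924, 8.25, 0.760, 2.30, 2.69 and 0.592 CPM in methylnaphthalene replicates 1 to 6. In WAF replicates 1 to 7 it had 0.249, 0.126, 0, 0.126, 0.541, 0.689 and 0.394 CPM. The value of 0 in WAF replicate 3 allows a level of up to 0.374 CPM by the limit of 3 counts, and the exact 95% Poisson interval reaches 0.459 CPM. WAF replicate 6 (0.689 CPM) again lay above the lowest methylnaphthalene larva, here replicate 6 (0.592 CPM). No exposed larva reached the control range, although the lowest control larva was only 1.07 times the highest methylnaphthalene larva. Of 10974 ortholog groups tested, 0.784% lay without overlap below the control larvae with methylnaphthalene, 0.346% with WAF and 0.082% with both.

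Group means of s2f_0112968001 were 21.6 ± 12.01 CPM (SD, n = 6) in control, 2.59 ± 2.90 CPM (SD, n = 6) in methylnaphthalene and 0.304 ± 0.249 CPM (SD, n = 7) after WAF. The fitted log2 fold changes relative to control were -3.00 (standard error 0.542) with methylnaphthalene and -5.86 (standard error 0.645) with WAF. By these it ranked 2 from the bottom of 10974 ortholog groups with methylnaphthalene and 1, the lowest of all, with WAF. The shares of ortholog groups called lower were 0.0638% with methylnaphthalene, 0.118% with WAF and 0.0364% with both.

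Both tables were compared larva by larva, because they were made from the same libraries by different routes. In control larvae Seq2Fun assigned 1398 counts to the ortholog group and Kallisto 1981 to the gene, so the Seq2Fun count amounted to 70.6% of the Kallisto count. This ratio of separate counts, which need not hold the same reads, was 71.1% in methylnaphthalene larvae (229 against 322 counts) and 78.4% in WAF larvae (29 against 37 counts). Over the 9 larvae with at least 20 Kallisto counts, which include no WAF larva, it ran from 64.1% to 79.5% per larva. Among WAF larvae, with few counts each, it ran from 0% to 100%. For whole libraries the Seq2Fun total was on average 40.2% of the Kallisto total. Within control larvae the log2 CPM of both tables correlated with r = 0.999 (two-sided exact permutation test, p = 0.00139, adjusted p = 0.0125 over a family of 9 within-group relations) and rho = 1.0 (exact p = 0.00278, adjusted p = 0.025), and r was 0.994 once the 2 larvae most distant from the median were left out. Within methylnaphthalene larvae r was 0.987 (exact permutation p = 0.00694, adjusted p = 0.0208), rho was 0.829 (exact p = 0.0583, adjusted p = 0.131), and r was 0.995 without 2 larvae. Within WAF larvae, where most values rest on 4 counts or fewer, r was 0.753 (exact permutation p = 0.0442, adjusted p = 0.0796), rho was 0.786 (exact p = 0.048, adjusted p = 0.131), and r fell to 0.156 without 2 larvae, so the relation rests on those larvae.

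The exposed groups were then compared with each other. The choice of the gene did not use this contrast, but it did use the values of both exposed groups relative to control. The p-values of this comparison are therefore not fully independent of the choice. LOC121867949 was higher in methylnaphthalene than in WAF larvae by 2.96 on the log2 scale (standard error 0.616, edgeR quasi-likelihood test, adjusted p = 0.0103), with 5 of 6 methylnaphthalene larvae above all 7 WAF larvae. In this contrast 1.06% of all genes were called higher with methylnaphthalene and 0.0264% lower. For s2f_0112968001 the difference was 2.86 (standard error 0.656, edgeR quasi-likelihood test, adjusted p = 0.0233), where 0.747% of ortholog groups were called higher with methylnaphthalene. An exact permutation test of the mean log2 CPM, which does not share spread with other genes, gave a difference of 2.52 in the Kallisto table (two-sided, p = 0.00175) and of 2.76 in the Seq2Fun table (p = 0.00233), with an adjusted p of 0.00233 for both. The difference was smaller without methylnaphthalene replicate 2, the highest larva of its group. Without it the fitted difference was 2.16 for the gene (edgeR adjusted p = 0.0242) and 2.08 for the ortholog group (edgeR adjusted p = 0.0586), and the mean of the methylnaphthalene larvae fell to 0.825 CPM for the gene and 1.45 CPM for the ortholog group. The call for the ortholog group was also lost when methylnaphthalene replicate 5 or WAF replicate 2, 3, 4 or 5 was left out, with edgeR adjusted p-values from 0.0515 to 0.0593. When only the methylnaphthalene and WAF larvae were fitted, both calls were lost (edgeR adjusted p = 0.0508 for the gene and 0.0688 for the ortholog group). With the replicate number as a block, the call for the ortholog group was lost (edgeR adjusted p = 0.0749) and that for the gene was kept (edgeR adjusted p = 0.0361).

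**Figure D2:**
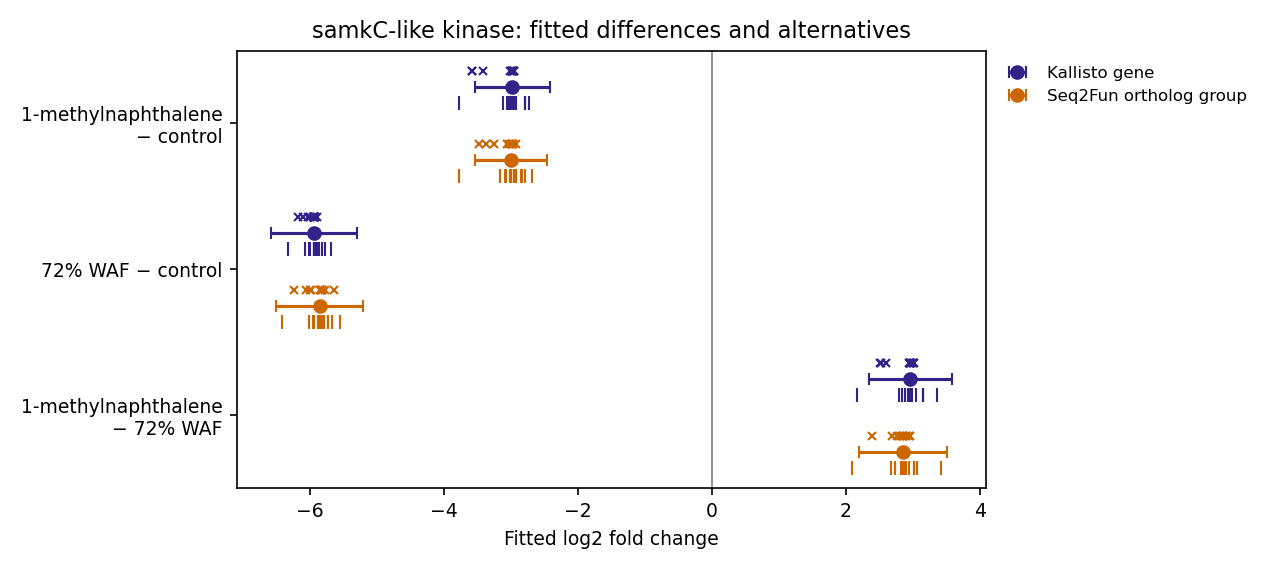
Fitted log2 fold changes of the samkC-like gene (Kallisto) and ortholog group (Seq2Fun) for the 3 contrasts, with points and bars for the estimate and its standard error. Crosses above each point are other settings of the analysis and ticks below it are fits with 1 larva left out. All lie on the same side of 0, and for methylnaphthalene against WAF the lowest ticks, 2.16 and 2.08, are the fits without methylnaphthalene replicate 2.

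The spread between larvae differed in size between the groups. On the log2 CPM scale the SD of LOC121867949 was 0.62 for control, 1.51 for methylnaphthalene and 0.92 for WAF larvae. From the lowest to the highest larva the CPM ran over 3.56-fold in control and 13.4-fold in methylnaphthalene larvae. The biological coefficient of variation that edgeR fitted was 0.670, above the value of 0.398 fitted for genes of like abundance and the median of 0.286 over all genes. For s2f_0112968001 these were 0.674, 0.333 and 0.280. Library depth varied alongside. The 3 methylnaphthalene larvae with the highest CPM, replicates 2, 4 and 5, were also the 3 with the most Kallisto counts, from 28988131 to 42595903. The other 3 had totals from 22724504 to 23564307 and nearly equal levels, from 0.354 to 0.388 CPM. The highest WAF larva, replicate 6, was the most deeply sequenced of all larvae.

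Within methylnaphthalene larvae the log2 CPM of LOC121867949 correlated with the log10 total count at r = 0.865 (two-sided exact permutation test, p = 0.025, adjusted p = 0.0563 over the family of 9) and rho = 0.714 (exact p = 0.136, adjusted p = 0.245), and at r = 0.980 once the 2 larvae most distant from the median were left out. The relation did not pass the correction. In control larvae r was 0.466 (exact permutation p = 0.36, adjusted p = 0.405), with rho = 0.429 (exact p = 0.419, adjusted p = 0.472) and r = 0.461 without 2 larvae. In WAF larvae r was 0.477 (exact permutation p = 0.272, adjusted p = 0.349), with rho = 0.107 (exact p = 0.84, adjusted p = 0.84), and it turned to -0.514 without 2 larvae. With group means subtracted, r with depth over the 19 larvae was 0.564 for LOC121867949, and 0.417% of the 15122 genes with a mean of at least 1 CPM had a higher value. For s2f_0112968001 it was 0.406, and 4.89% of 10115 ortholog groups had a higher value. Adding the log10 total count to the fit, an alternative chosen after seeing the data, moved the log2 fold change of the gene to -3.59 with methylnaphthalene and to -6.18 with WAF, and the difference between the exposed groups to 2.60 (edgeR adjusted p = 0.018). Whether depth has a part in the spread within groups was not tested further.

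**Figure D3:**
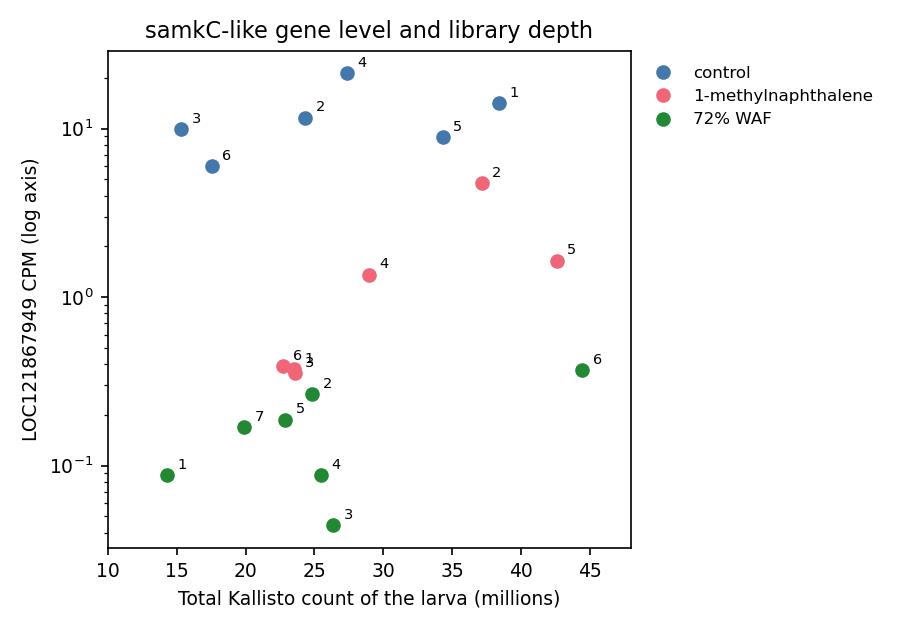
CPM of LOC121867949 on a log axis against the total Kallisto count of each larva, with points numbered by replicate and coloured by group. The control larvae (5.99 to 21.3 CPM) lie above the exposed larvae. Their totals run from 15342184 to 38401192, a narrower range than that of the WAF larvae (14295653 to 44466373). Methylnaphthalene replicates 2, 4 and 5, the deepest of their group, lie above replicates 1, 3 and 6.

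A second measure that varied between larvae was the share of counts taken by LOC121857831, an abundant long noncoding RNA, which ran from 7.44% to 28.02%. In control larvae the level of LOC121867949 rose with this share (r = 0.932, two-sided exact permutation test, p = 0.00556, adjusted p = 0.0208), although rho = 0.886 did not pass the correction (exact p = 0.0333, adjusted p = 0.131). Without the 2 larvae farthest from the median r was 0.874. How many other genes had such an r within control larvae was not counted, so the relation may not be particular to this gene. In methylnaphthalene larvae r was -0.322 (exact permutation p = 0.501, adjusted p = 0.501), rho was -0.657 (exact p = 0.175, adjusted p = 0.262) and r was 0.729 without 2 larvae, so no direction can be given. In WAF larvae r was -0.592 (exact permutation p = 0.177, adjusted p = 0.265), rho was -0.50 (exact p = 0.267, adjusted p = 0.343) and r was -0.195 without 2 larvae. With group means subtracted, r with this share over the 19 larvae was -0.286 for LOC121867949, and 58.4% of 15122 genes had a higher value. For s2f_0112968001 it was -0.255, and 52.4% of 10115 ortholog groups had a higher value. With this share in the fit, also chosen after seeing the data, the log2 fold changes of the gene were -2.95 with methylnaphthalene and -5.90 with WAF.

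The genes whose levels followed LOC121867949 most closely were ranked by Pearson's r of log2 CPM over the 19 larvae, among 15121 other genes with a mean of at least 1 CPM. Since the member differs between groups, so do genes like it, and these values are a description. The first was LOC121878881 (r = 0.952), which resembles the AN1-type zinc finger protein 2A and whose mammalian relative is an arsenite-inducible protein that associates with the proteasome. It ran from 91.96 to 298 CPM in control, from 7.74 to 30.97 CPM in methylnaphthalene and from 4.92 to 13.2 CPM in WAF larvae. In contrast to LOC121867949, its fold changes relative to control larvae were closer together, at -3.39 and -4.43 on the log2 scale. The fourth was LOC121853632 (r = 0.914), a sequestosome-1-like gene, named after a mammalian receptor of selective autophagy that binds ubiquitinated proteins. It had 505 ± 36.6 CPM (SD, n = 6) in control, 217 ± 30.5 CPM (SD, n = 6) in methylnaphthalene and 183 ± 8.10 CPM (SD, n = 7) in WAF larvae. The corresponding log2 fold changes were -1.22 and -1.46.

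The other 3 are uncharacterized genes. Like LOC121878881 and LOC121853632, they had a lower level in WAF than in methylnaphthalene larvae on average. LOC121863976 (r = 0.911) had 80.5 ± 30.8 CPM (SD, n = 6) in control, 32.1 ± 30.7 CPM (SD, n = 6) in methylnaphthalene and 2.95 ± 3.24 CPM (SD, n = 7) after WAF. The highest methylnaphthalene larva, at 94.1 CPM, lay within its control range of 47.4 to 129 CPM, whereas no WAF larva exceeded 9.66 CPM. LOC121859558 (r = 0.938) had means of 13.96, 5.55 and 1.33 CPM in control, methylnaphthalene and WAF larvae. LOC121867050 (r = 0.932) had means of 24.8, 13.7 and 6.63 CPM in these groups. In all, 6 genes had an r above 0.9 and 29 an r above 0.8. By Spearman's rho, 3 of the 5 genes were again among the first 5.

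**Figure D4:**
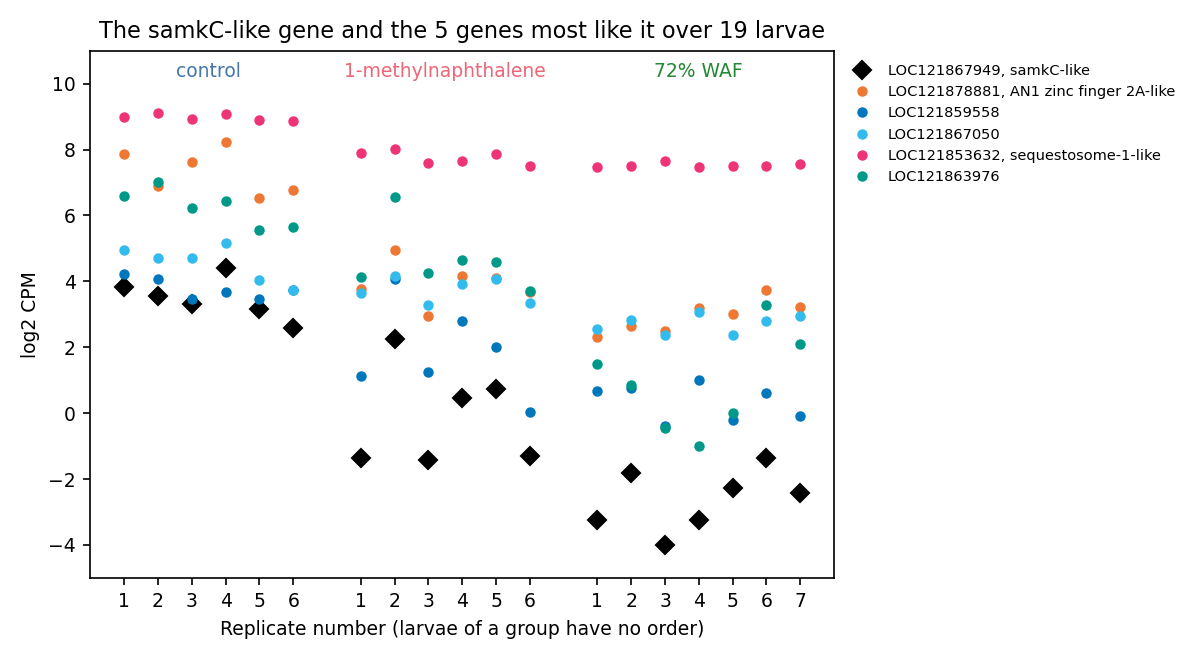
log2 CPM of LOC121867949 (black diamonds) and of the 5 genes with the highest correlation with it, for each larva by group. All 6 genes have lower values in exposed than in control larvae on average, and methylnaphthalene replicate 2 is the highest larva of its group for each of them.

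Among ortholog groups, the closest to s2f_0112968001 was s2f_0093692001 (r = 0.917), an uncharacterized group with means of 29.0, 17.1 and 3.65 CPM in control, methylnaphthalene and WAF larvae. It was followed by s2f_0001499003, named ZFAND2A (r = 0.912), with means of 57.8, 4.43 and 2.59 CPM. The hypothetical protein group s2f_0005007002 (r = 0.899) had means of 410 CPM in control, 151 CPM in methylnaphthalene and 122 CPM in WAF larvae. The last of the 5 were the uncharacterized group s2f_0080103001 (r = 0.889) and s2f_0200416001 (r = 0.886), which bears the name of a plant cell wall protein, leucine-rich repeat extensin-like protein 3. In s2f_0200416001 the means were 67.98, 42.4 and 7.47 CPM, and its highest methylnaphthalene larva (116 CPM) lay above all control larvae, the highest of which had 93.6 CPM.

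With the group means subtracted, so that only differences between larvae of the same group remained, other genes came first. They were a transcription factor AP-1-like gene, LOC121879991 (r = 0.779), the gene LOC121869130 (r = 0.775), the uncharacterized gene LOC121870974 (r = 0.766), a transcription factor kayak-like gene, LOC121862308 (r = 0.765), and again LOC121878881 (r = 0.752). Jun and Fos proteins, for which AP-1 and the Drosophila gene kayak are named, pair to form the AP-1 transcription factor. LOC121879991 had 41.2 ± 6.66 CPM (SD, n = 6) in control, 64.95 ± 17.6 CPM (SD, n = 6) in methylnaphthalene and 34.0 ± 9.11 CPM (SD, n = 7) in WAF larvae. LOC121862308 had 39.9 ± 8.01, 79.6 ± 19.2 and 30.9 ± 5.75 CPM in the same groups, so that both were on average highest with methylnaphthalene while the samkC-like gene was highest in control larvae. In both genes methylnaphthalene replicates 2, 4 and 5 and WAF replicate 6, the deepest of their groups, were also the highest. Control replicate 5, with the second highest total of its group, was the second lowest control larva for both. Whether depth has a part in this likeness was not tested. In the Seq2Fun table an AP-1 group, s2f_0002040001, came first (r = 0.810), ahead of s2f_0093692001 (r = 0.793), s2f_0008919002 (r = 0.792), s2f_0383497001 (r = 0.758) and s2f_0002800001 (r = 0.724). Since this table was made from the same libraries, the AP-1 group is not a second observation. Without methylnaphthalene replicate 2, 0 of these 5 genes of the Kallisto table and 3 of the 5 ortholog groups were among the first 5, and without WAF replicate 6 these counts were 2 and 4. Across the leave-one-out rankings of all 19 larvae, 0 to 5 of the genes and 3 to 5 of the ortholog groups stayed among the first 5.

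The samkC-like gene was last set beside other protein kinase genes. Names were available only for genes in the most significant part of the study's methylnaphthalene comparison, which comes from these larvae, so the list of 24 kinase genes is not independent of that contrast. The WAF contrast uses the same control larvae, so the list is not fully independent of it either. Of the 24 kinase genes, 20 passed the filters, and the other 4, with at most 12 counts in any larva, were removed for their small interquartile range. With methylnaphthalene 6 of the 20 were called higher and 0 lower by edgeR's quasi-likelihood test (with an unadjusted p below 0.05, 20 were higher and 0 lower), while 3.67% of all genes were called higher. Their median log2 fold change was 1.10, against -0.02 over all genes tested, and the choice of the list from this contrast means that nothing can be read from these counts. With WAF 0 were called in either direction by edgeR, limma, DESeq2 and the likelihood ratio test. Of all genes, 0.0106% were called higher and 0.106% lower with WAF. An unadjusted edgeR p below 0.05 was reached by 5 kinase genes that were higher and 0 that were lower. For neither contrast was the share of all genes at this unadjusted threshold counted, so these counts have no background. The median log2 fold change of the 20 kinase genes with WAF was 0.14, with values between -0.34 and 1.11, against 0.01 over all genes. LOC121867949, at -5.94 with WAF, lay outside the range of the 20 genes. It was chosen for lower values after both exposures, so this position adds no evidence.

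The largest changes of the list were in the opposite direction to that of the samkC-like gene. The list came from the methylnaphthalene comparison of these larvae. The adjusted p-values given for methylnaphthalene are therefore a description and add no evidence for a rise. LOC121872643, a meng-po-like kinase gene named after a Drosophila kinase, rose with methylnaphthalene by 5.69 on the log2 scale (edgeR adjusted p = 1.80e-05) and its log2 fold change with WAF was 0.15 (edgeR adjusted p = 0.939). LOC121872645, named after SBK1, a mammalian kinase with an SH3-binding domain, rose by 3.96 (edgeR adjusted p = 0.000283), with a log2 fold change of -0.02 with WAF (edgeR adjusted p = 0.993). LOC121878376, an Sgk1-like gene named after the serum- and glucocorticoid-regulated kinase of mammals, rose by 3.73 (edgeR adjusted p = 0.00407), with 1.11 for WAF (edgeR adjusted p = 0.667). In LOC121878376 the methylnaphthalene larvae ran from 8.71 to 37.8 CPM and the control larvae from 0.967 to 2.95 CPM. The difference between the samkC-like gene and these genes in their response was not tested.

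**Figure D5:**
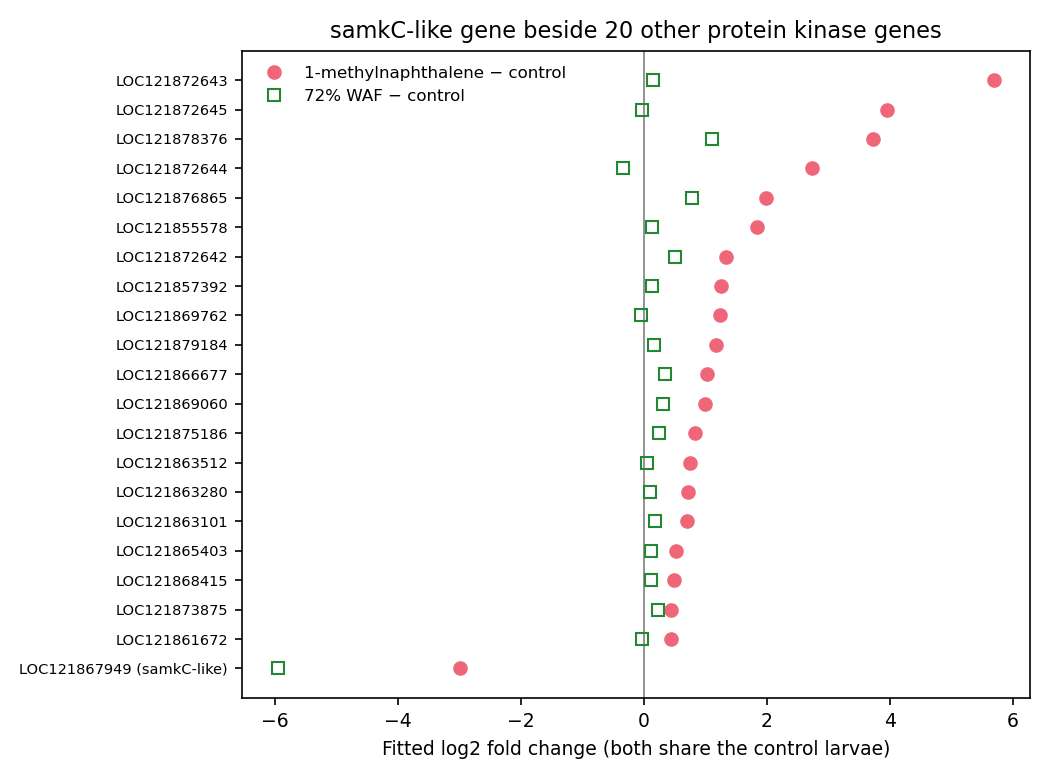
Fitted log2 fold changes relative to control larvae of the samkC-like gene and of the 20 other kinase genes that passed the filters, with circles for methylnaphthalene and squares for WAF. Both contrasts use the same control larvae. The samkC-like gene, at -2.98 and -5.94, is the only one of the 21 on the left in both contrasts. It was chosen for lower values in both, and the 20 others were listed because they stood out in the methylnaphthalene comparison.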

How the data were processed

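Whole larvae were sequenced 1 per library, and table columns were assigned to larvae through the sample titles. The authors filtered the reads with fastp. For one table they deposited expected counts estimated by Kallisto per transcript of the GMGI_Hamer_2.0 assembly, and for the other they deposited unnormalized counts that Seq2Fun had made per ortholog group with its Crustaceans database. All 46006 transcripts were matched to 25667 genes through the RefSeq gene list, summed and rounded. How reads of related genes were divided depends on Kallisto.

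Features with at least 4 counts in all were kept, and the 15% with the smallest interquartile range were removed, leaving 18914 genes and 10974 ortholog groups. One edgeR 4.0.16 quasi-likelihood fit (R 4.3.3, TMM) used all 19 larvae, with Benjamini-Hochberg adjustment over each table. Standard errors are the log2 fold change over the root of F. Calls used the thresholds of the study, 0.05 for the adjusted p and 1.5 for the size of the log2 fold change. Log2 CPM used a prior count of 0.5. Single values were tested by exact permutation (Python 3.11, scipy 1.17.1). limma 3.58.1, DESeq2 1.42.0, other filters and library sizes, a replicate block and each larva left out were alternatives. The fit was checked on simulated counts. The named genes are both members, the 5 features most like each by r with and without group means, and up to 3 called kinase genes in each direction.

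The members and lists were chosen with earlier results of these data known. The methods of the study name limma, and edgeR was used because the files hold counts. Replicates are separate larvae of a single experiment. The authors' own fold changes and p-values, which come with the paper, were not used. Sequences of the gene, its protein and its promoter were not used here. Gene and ortholog group names were taken from the annotation given by the study.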

Additional observations from a re-analysis of the deposited data

Results flagged for a closer look

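Methylnaphthalene replicate 2 stood apart from the other 5 larvae of its group in both tables on the CPM scale. LOC121867949 had 4.75 CPM in this larva and 1.65 CPM in the next highest, a gap of 0.705 of the whole range of the group, where values above 0.625 were marked as far from the rest for 6 larvae. The ortholog group s2f_0112968001 had 8.25 CPM in the same larva and 2.69 CPM in the next highest, a gap of 0.726 of the range. On the log2 CPM scale the gaps were 0.412 and 0.432 of the range, under the same limit. Both values come from the same library and count as 1 observation. Of the 6 groups of values examined, about 1 in 20 would be marked by chance. The larva had 37166121 Kallisto counts, the second highest total of its group.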

How the results depend on the processing

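No alternative turned the direction of any fold change of the members. Relative to control larvae, the log2 fold change of LOC121867949 ran from -3.78 to -2.74 with methylnaphthalene and from -6.34 to -5.69 with WAF when each larva was left out in turn, and from -3.59 to -2.95 and from -6.18 to -5.90 under the other settings. For s2f_0112968001 the ranges were -3.77 to -2.69 and -6.41 to -5.55 without 1 larva, and -3.47 to -2.93 and -6.23 to -5.64 otherwise. The difference between methylnaphthalene and WAF ran from 2.16 to 3.36 for the gene and from 2.08 to 3.42 for the ortholog group without 1 larva, with adjusted p-values up to 0.0286 and 0.0593. Fitting only the groups compared lost its call in both tables, at 2.97 (adjusted p = 0.0508) and 2.89 (adjusted p = 0.0688). With the replicate number as a block the difference was 2.51 for the gene (adjusted p = 0.0361) and 2.38 for the ortholog group (adjusted p = 0.0749), whose call was lost. Of the 18 pairs of same-numbered larvae, 11 correlated above 0.1 in the Kallisto table (range -0.251 to 0.46) and 12 in the Seq2Fun table (-0.397 to 0.632), and 6 and 5 correlated best with their own number. What chance would give was not computed, so a pairing by number is neither shown nor excluded. The main fit used no block. Dropping the fold change threshold raised the kinase genes called higher with methylnaphthalene from 6 to 20. These genes were listed for their significance in this contrast, and the share of all genes called at that setting is not given. Nothing can therefore be read from the rise. WAF levels rest on at most 19 counts per larva, and differences among WAF larvae were not tested.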
